A study of Mus musculus with 30 samples.

Results

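The genes described here encode ligands that tumor cells can display to T cells, natural killer cells and macrophages to restrain or co-stimulate them. The list held 10 genes of the 49315 counted in each library: Cd274, Pdcd1lg2, Cd80, Cd86, Lgals9, Pvr, Nectin2, Tnfrsf14, Cd47 and Cd276. They were chosen by name for what they encode, with earlier results of these data known. They were matched by symbol to their Ensembl identifiers and followed in 24 RNA-seq libraries from cultured mouse tumor cells. B16F10 is a melanoma line of C57BL/6 origin. The other line, 6694c2, is a single pancreatic ductal adenocarcinoma (PDAC) clone from a mouse in which Pdx-cre switched on a YFP reporter and deleted a p53 allele. Each line was grown for 24 h with vehicle, with interferon gamma (IFNγ, 100 ng/mL), with interferon beta (IFNβ, 1000 U/mL) or with a STING agonist (225 μg/mL), and each of the 8 groups held 3 libraries. The sequencing was done to assess how the tumor cells themselves respond to the STING agonist. The interferon doses are in different units, so a difference between IFNγ and IFNβ is a difference between these doses. Nothing in the labels says whether the 3 libraries of a group came from separate cultures, so the p-values measure only the spread between these libraries.

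Checkpoint ligands bind receptors on immune cells and set the threshold at which those cells act. PD-L1 and PD-L2 bind PD-1 on T cells, CD80 and CD86 bind CD28 and CTLA-4, and CD47 binds SIRPα on macrophages as a signal against phagocytosis. Interferons act through surface receptors, JAK kinases and transcription factors, among them IRF1 for IFNγ and STAT2 with IRF9 for type I interferons such as IFNβ, while STING is a sensor adaptor whose activation leads to type I interferon. PD-L1 is the classical example of a ligand that interferon induces on tumor cells.

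Reads on genes ranged from 15543131 to 26399495 per B16F10 library and from 17450954 to 32266795 per 6694c2 library. A count of 3 reads, taken as the limit that a count of 0 allows, corresponded to 0.0998 to 0.184 CPM, with counting error only. CPM are the reads of a gene scaled to a common library total after TMM adjustment. The lines carried their own markers: the 10 melanocyte markers summed to 15384 to 19506 CPM in B16F10 libraries, and the 10 ductal epithelial markers summed to 12830 to 15120 CPM in 6694c2 libraries. A low level of each line's markers was also found in the other line. The ductal markers in B16F10 reached 0.133% ± 0.0240 (SD, n = 3) of their 6694c2 level with vehicle, 0.234% ± 0.0880 with IFNγ, 0.272% ± 0.126 with IFNβ and 0.827% ± 0.120 with the STING agonist. With these treatments 5, 7 and 5 of the 10 were called higher than vehicle (12%, 12.7% and 1.93% of all genes were). The melanocyte markers in 6694c2 reached 0.470% ± 0.00786 of their B16F10 level with vehicle, 0.457% ± 0.254 with IFNγ (0.199% to 0.708% between libraries), 0.192% ± 0.0404 with IFNβ and 0.114% ± 0.0107 with the STING agonist. Here 0, 8 and 6 of the 10 markers were called lower (5.66%, 7.86% and 0.156% of all genes were). Their part in the ligand results was not tested. Leukocyte markers summed to at most 22.4 CPM over 14 genes. Cd3e, Itgam and Tyrobp stood at 0 in all 3 B16F10 vehicle libraries. Others did not, with means there of 5.48 CPM for Lyz2, 3.88 for Ms4a1, 2.33 for Laptm5 and 2.01 for Cd79a. In 6694c2 with vehicle Ms4a1 averaged 5.78 CPM and Tyrobp 0.118 CPM. Of the 12 leukocyte markers tested, 1 rose (Cd79a) and 1 fell (Lyz2) with IFNγ in B16F10 (12% and 10.8% of all genes did). Of 16 interferon control genes, 15 rose with IFNγ in each line (12% of all genes in B16F10 and 7.89% in 6694c2). With IFNβ 13 rose in each line (12.7% and 10.4%). With the STING agonist 12 rose in B16F10 (1.93%), while 2 rose and 1 fell in 6694c2 (0.203% and 0.156%). In bulk RNA, fewer cells that express a gene and less RNA per cell cannot be told apart.

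Of the 10 ligand genes, 5 rose with IFNγ in B16F10 cells (Benjamini-Hochberg adjusted p below 0.05 by the quasi-likelihood test of edgeR), where 12% of the 21138 genes tested rose. None of the 10 fell, against 10.8% of all genes. With IFNβ, 6 rose in B16F10 cells (12.7% of all genes) and 0 fell (11.2%). In 6694c2 cells, 6 rose with IFNγ (7.89% of all genes) and 6 with IFNβ (10.4%), and 0 fell with either (5.66% and 7.86%), by edgeR or by DESeq2. At an unadjusted p under 0.05 the counts for these 4 comparisons, in either direction, were 6, 6, 6 and 7. With the STING agonist, 2 rose and 1 fell in B16F10 cells (1.93% and 1.53% of all genes, 3.46% in either direction), and 0 were called in 6694c2 cells (0.203% of all genes rose and 0.156% fell, 0.36% in either direction). In that last comparison 1 member, Nectin2, had an unadjusted p under 0.05 and DESeq2 called 0. The comparisons within a line share their vehicle libraries. Because the list was chosen with earlier results of these data known, an excess over the share of all genes is only a description.

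**Figure D1:**
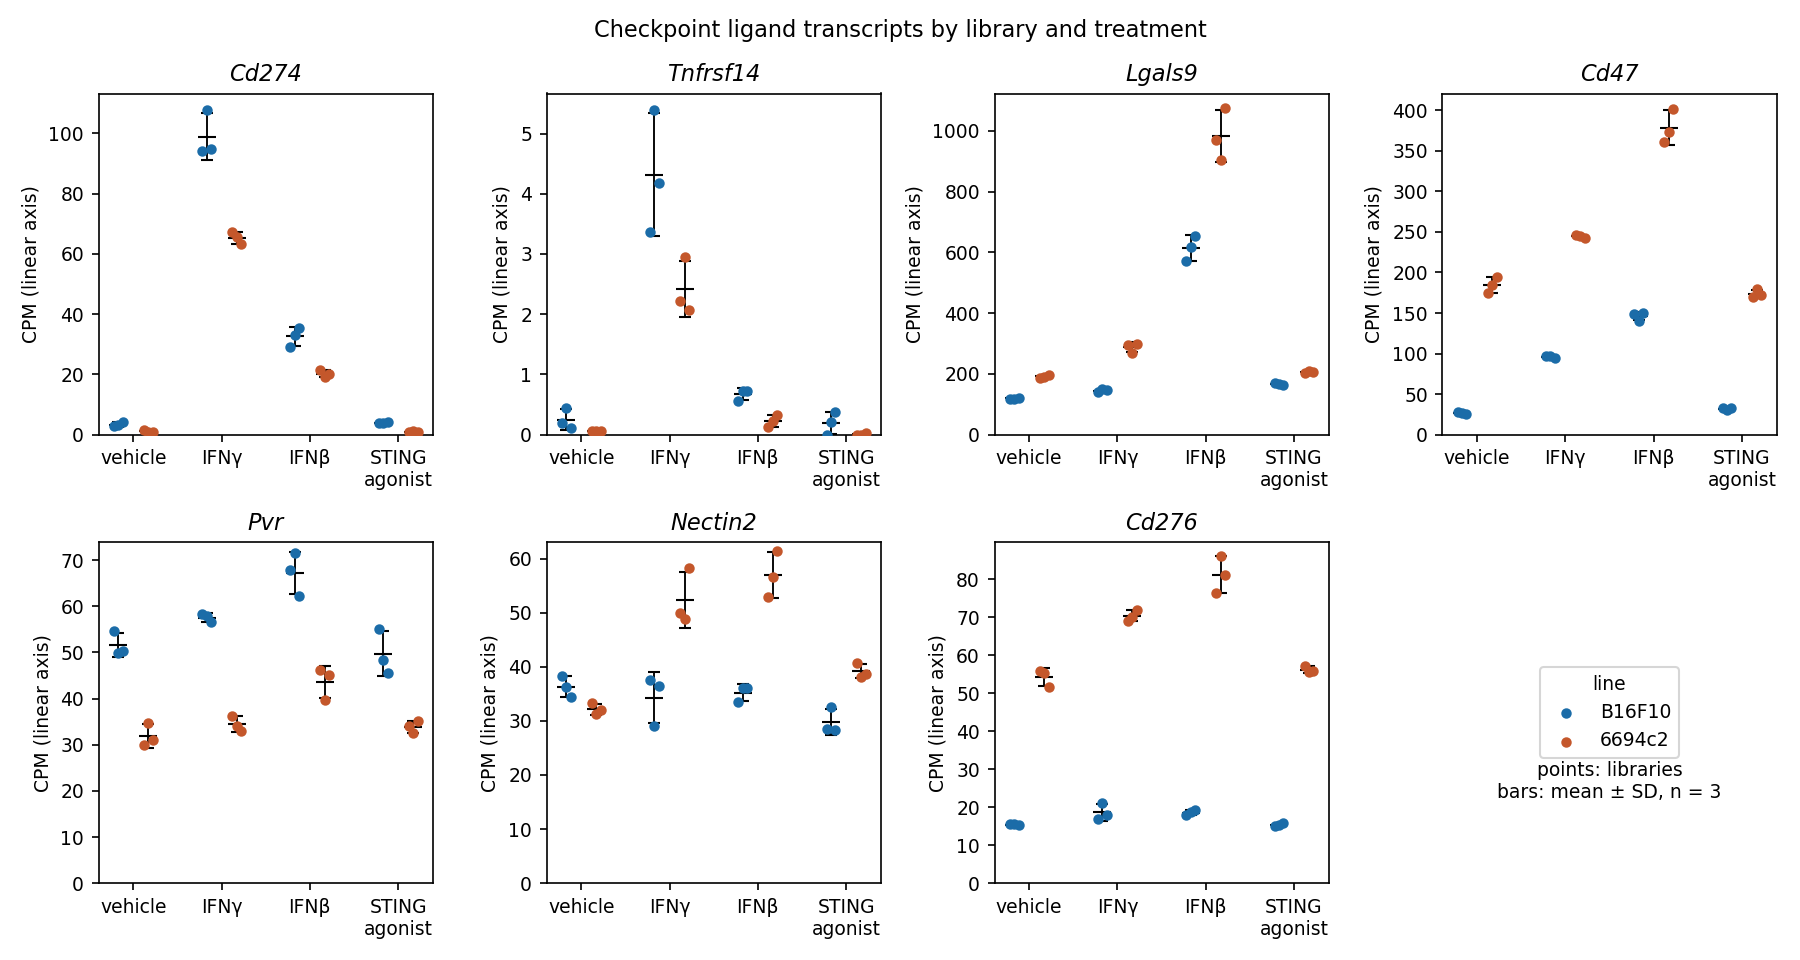
Each panel plots 1 ligand gene, with CPM on a linear axis that starts at 0 against the 4 treatments. Points are libraries (blue, B16F10; orange, 6694c2), and bars are the mean ± SD of 3 libraries. Cd274 and Tnfrsf14 are highest with IFNγ in both lines, and Lgals9 and Cd47 are highest with IFNβ in both lines.

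Cd274 encodes PD-L1, and had the largest fitted fold change of the ligands with IFNγ in both lines, although differences between genes were not tested. The gene lies at chr19:29367455-29388095 (mm10, plus strand). In B16F10 cells its level was 2.73, 3.13 and 4.18 CPM in the vehicle libraries, 94.0, 108 and 94.8 CPM with IFNγ, 29.2, 33.2 and 35.5 CPM with IFNβ, and 3.94, 4.03 and 4.09 CPM with the STING agonist. The vehicle, IFNβ and IFNγ libraries formed 3 groups without overlap, and the STING agonist libraries lay within the vehicle range. The log2 fold change against vehicle was 4.86 (SE 0.101, adjusted p = 2.4e-168) with IFNγ, a 29.1-fold rise, and 3.28 (SE 0.106, adjusted p = 5.2e-107) with IFNβ, a 9.70-fold rise. With the STING agonist it was 0.24 (SE 0.147, adjusted p = 0.50).

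In 6694c2 cells Cd274 was lower in CPM in every group, and its fold changes with the interferons were larger. Its level was 1.63, 0.893 and 0.792 CPM with vehicle, 67.2, 65.7 and 63.3 CPM with IFNγ, 21.4, 19.1 and 20.1 CPM with IFNβ, and 0.867, 1.15 and 0.986 CPM with the STING agonist. The vehicle values rest on 28, 16 and 13 reads. Again both interferon groups stood apart from vehicle and from each other, and the STING agonist libraries lay inside the vehicle range. The fold change was 59.4 with IFNγ (log2 5.89, SE 0.145, adjusted p = 7.9e-32) and 18.6 with IFNβ (log2 4.22, SE 0.156, adjusted p = 2.8e-25), and the STING agonist gave a log2 change of -0.14 (SE 0.249, adjusted p = 0.96).

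The stretch just before the Cd274 start site is shown because Cd274 had the largest fitted fold change with IFNγ. It is the 150 bases before the RefSeq start (GRCm38.p6, chr19:29367288-29367437, plus strand, 5′ to 3′), and no capitals appear because none of the motifs searched was found in it:
Cd274: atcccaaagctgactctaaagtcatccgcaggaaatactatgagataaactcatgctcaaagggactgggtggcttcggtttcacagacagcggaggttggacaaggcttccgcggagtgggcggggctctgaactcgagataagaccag

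Pdcd1lg2 encodes PD-L2, the other ligand of PD-1, and lies next to Cd274 on the same strand, 22.8 kb beyond its end with no annotated gene between. Although its neighbor rose by 29.1-fold or more with IFNγ, Pdcd1lg2 gave 13 reads over all 24 libraries and was at 0 in 17 of them. Both vehicle groups and the IFNβ and STING agonist groups of 6694c2 held 0 reads. The highest library was replicate 1 of B16F10 with IFNβ, with 4 reads. That library, at 0.161 CPM, was the only 1 of the 24 with more than 3 reads, so changes were not detectable at this depth and no fold change is given.

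Tnfrsf14 encodes HVEM, which engages BTLA and CD160 on lymphocytes as an inhibitory ligand and LIGHT as a receptor. It was near the detection limit with vehicle and rose with IFNγ in both lines. B16F10 vehicle libraries held 4, 11 and 3 reads (0.191, 0.441 and 0.117 CPM), and the IFNγ libraries held 92, 115 and 95 reads (3.37, 5.39 and 4.18 CPM). The log2 fold change was 4.06 (SE 0.357, adjusted p = 1.6e-24), and the ratio of scaled counts was 16.8 with a counting interval of 10.4 to 28.7 (95%, exact). IFNβ gave 0.565, 0.728 and 0.728 CPM, each above every vehicle library, with a log2 change of 1.41 (SE 0.441, adjusted p = 0.0086). That call was lost without vehicle replicate 3 (log2 1.05, adjusted p = 0.11) and in a fit of only the groups compared (adjusted p = 0.051). The STING agonist libraries held 0, 5 and 7 reads and overlapped vehicle.

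In 6694c2 cells each vehicle library held 1 Tnfrsf14 read, and the IFNγ libraries held 40, 48 and 61. The ratio of scaled counts was 40.1 with a counting interval of 13.5 to 196.7, and the fitted log2 change was 5.25 (SE 0.585, adjusted p = 1.8e-09). With IFNβ the libraries held 4, 5 and 9 reads, a ratio of 3.89 with a counting interval of 1.14 to 20.6, and the change was not called (adjusted p = 0.098). The STING agonist group held 1 read in all. Even with IFNγ it was the lowest per exon length of the 7 ligands with at least 100 reads, in both lines, with a range that overlapped that of Cd276 in B16F10.

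The 30 bases shown for Tnfrsf14 hold the only motif match in its window. They lie 74 to 45 bases before the RefSeq start (GRCm38.p6, chr4:154928122-154928151, minus strand, 5′ to 3′), which is 486 bases inside the gene as counted here, and all 30 fall in an exon of another annotated transcript. Capitals mark a match to the interferon regulatory factor (IRF) pair, a GAAA repeat with any 2 bases between, read here as its reverse complement:
Tnfrsf14: ctattttttcTTTCATTTTCacttttcctt

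Lgals9 encodes galectin-9, a secreted lectin that binds TIM-3 and other glycoproteins on T cells. It rose far more with IFNβ than with IFNγ. Its B16F10 levels were 118, 119 and 122 CPM with vehicle, 139.8, 149 and 147 CPM with IFNγ, 572, 618 and 655 CPM with IFNβ, and 169.5, 166 and 162 CPM with the STING agonist. All 3 treated groups lay wholly above vehicle, and the STING agonist libraries also lay wholly above the IFNγ libraries. IFNβ gave a 5.18-fold rise (log2 2.37, SE 0.0561, adjusted p = 1.4e-148), the STING agonist 1.38-fold (log2 0.47, SE 0.0553, adjusted p = 1.8e-13) and IFNγ 1.21-fold (log2 0.28, SE 0.0551, adjusted p = 7.4e-06). The STING call held under every alternative tried.

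In 6694c2 cells Lgals9 rose as far with IFNβ, from 186, 191 and 198 CPM to 971, 903 and 1075 CPM, a 5.26-fold rise (log2 2.39, SE 0.0705, adjusted p = 4.9e-29). IFNγ raised it 1.52-fold, to 296, 268 and 297 CPM (log2 0.60, SE 0.0679, adjusted p = 2.6e-09). The STING agonist libraries, at 205, 208 and 207 CPM, all lay above the vehicle libraries, but the change of 0.11 (log2, SE 0.0677) was not called (adjusted p = 0.74). The gene lies at chr11:78962974-78984946 (mm10, minus strand).

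The Lgals9 stretch is shown because this gene gained the most CPM with IFNβ and its window held 2 IRF pair matches. It covers bases 150 to 23 before the RefSeq start (GRCm38.p6, chr11:78984947-78985074, minus strand, 5′ to 3′), and the capitals mark the upstream match. The other match lies within the first 50 bases after the start:
Lgals9: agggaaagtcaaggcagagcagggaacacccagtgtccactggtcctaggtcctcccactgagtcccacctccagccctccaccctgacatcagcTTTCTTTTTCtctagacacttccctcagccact

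Cd47 encodes the "do not eat me" ligand of SIRPα, and rose with both interferons in both lines. In B16F10 cells its level was 27.4, 26.3 and 25.8 CPM with vehicle, 97.0, 97.5 and 94.2 CPM with IFNγ, 149, 140.1 and 149.7 CPM with IFNβ, and 33.1, 29.8 and 33.2 CPM with the STING agonist. The 4 groups did not overlap. IFNβ gave a 5.56-fold rise (log2 2.47, SE 0.0678, adjusted p = 4.7e-128) and IFNγ a 3.62-fold rise (log2 1.86, SE 0.0680, adjusted p = 5.8e-92). The STING agonist gave 1.20-fold (log2 0.26, SE 0.0730, adjusted p = 0.015), a call that was lost without vehicle replicate 2 (adjusted p = 0.063), vehicle replicate 3 (0.091), STING agonist replicate 1 (0.11) or STING agonist replicate 3 (0.14), with log2 changes of 0.24 to 0.26.

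6694c2 cells had more Cd47 at the start, and the fold rise was smaller although the gain in CPM with IFNβ (194 CPM against 120 in B16F10) was larger. The levels were 174, 184 and 194 CPM with vehicle, 246, 245 and 242 CPM with IFNγ, 361, 374 and 402 CPM with IFNβ, and 170.4, 179 and 172 CPM with the STING agonist. Both interferon groups lay above vehicle without overlap, and the STING agonist group overlapped it. The rise was 2.11-fold with IFNβ (log2 1.07, SE 0.0656, adjusted p = 1.9e-17) and 1.34-fold with IFNγ (log2 0.42, SE 0.0654, adjusted p = 2.9e-06), and the change with the STING agonist was -0.08 (log2, SE 0.0654, adjusted p = 0.81). The gene lies at chr16:49855618-49915010 (mm10, plus strand).

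The upstream stretch of Cd47 is shown for comparison with that of Lgals9, since both genes were highest with IFNβ. It covers bases 150 to 22 before the RefSeq start (GRCm38.p6, chr16:49855504-49855632, plus strand, 5′ to 3′), and no motif searched was found in it:
Cd47: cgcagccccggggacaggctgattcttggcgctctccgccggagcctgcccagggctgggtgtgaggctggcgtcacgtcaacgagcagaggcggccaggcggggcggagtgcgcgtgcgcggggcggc

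**Figure D2:**
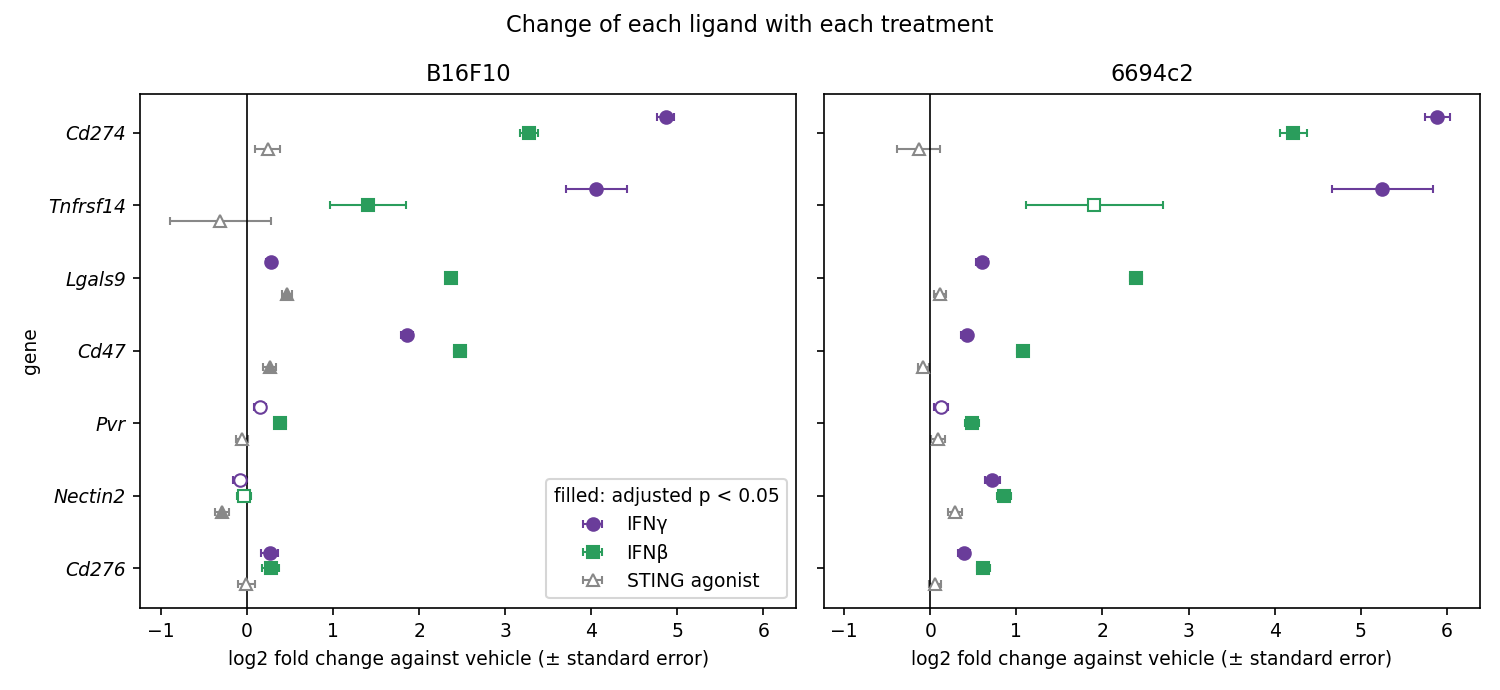
The log2 fold change against vehicle of the 7 ligand genes with at least 100 reads is plotted for each line, with bars for the standard error of the fit. Circles are IFNγ, squares IFNβ and triangles the STING agonist, and filled symbols passed an adjusted p of 0.05. Cd274 lies farthest right with either interferon, followed by Tnfrsf14 with IFNγ, and the STING agonist points stay between -0.31 and 0.47. Tnfrsf14 with the STING agonist in 6694c2 is not drawn because both groups held 3 reads or fewer.

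Pvr and Nectin2 encode CD155 and CD112, proteins of the nectin and nectin-like family that bind the inhibitory receptor TIGIT and the activating receptor DNAM-1. Pvr rose with IFNβ in both lines, and Nectin2 with both interferons in 6694c2. Pvr was at 54.7, 49.9 and 50.3 CPM in B16F10 with vehicle and at 67.8, 71.5 and 62.3 CPM with IFNβ, without overlap, a 1.31-fold rise (log2 0.39, SE 0.0675, adjusted p = 2.6e-07). The rise in 6694c2 was 1.40-fold, from 29.9, 34.7 and 30.9 CPM to 46.1, 39.6 and 45.0 CPM (log2 0.49, SE 0.0829, adjusted p = 1.4e-05). IFNγ changed Pvr by 0.16 (SE 0.0682, adjusted p = 0.090) in B16F10 and 0.13 (SE 0.0849, adjusted p = 0.43) in 6694c2 on the log2 scale, and neither passed. With the STING agonist the log2 change was 0.09 (SE 0.0837, adjusted p = 0.83) in 6694c2 and -0.06 (SE 0.0697, adjusted p = 0.78) in B16F10.

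Nectin2 rose in 6694c2 from 33.3, 31.2 and 32.003 CPM to 49.8, 48.7 and 58.3 CPM with IFNγ and 52.9, 56.6 and 61.4 CPM with IFNβ. No treated library overlapped vehicle, and the rises were 1.65-fold (log2 0.72, SE 0.0830, adjusted p = 4.1e-09) and 1.81-fold (log2 0.86, SE 0.0822, adjusted p = 2.8e-11). The STING agonist libraries, at 40.6, 38.1 and 38.7 CPM, also lay above every vehicle library, with a log2 change of 0.29 (SE 0.0830) that was not called (adjusted p = 0.18). In B16F10 the vehicle libraries were at 38.3, 36.3 and 34.3 CPM, and the changes with IFNγ and IFNβ were -0.08 (SE 0.0779, adjusted p = 0.57) and -0.03 (SE 0.0775, adjusted p = 0.84).

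The STING agonist libraries of B16F10 had less Nectin2, at 28.5, 32.5 and 28.4 CPM, below every vehicle library, with a log2 change of -0.29 (SE 0.0801, adjusted p = 0.017). This was the only fall called among the ligands in the 6 comparisons with vehicle, and it was not called by DESeq2 (adjusted p = 0.061), with the filterByExpr minimum (0.062) or in the fit of 24 libraries (0.095). It was also lost without vehicle replicate 1 (0.14), vehicle replicate 2 (0.064), STING agonist replicate 1 (0.11) or STING agonist replicate 3 (0.17). Of the exon bases of Nectin2, 135 are shared with Gm20512 on the other strand, which had 73 reads over all libraries, and whether the counting used strand is not given in the sources used here.

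Cd276 encodes B7-H3, a B7 family protein of many solid tumors whose receptor is debated. It rose by small amounts with both interferons. Its 6694c2 levels were 55.8, 55.3 and 51.6 CPM with vehicle, 69.0, 70.2 and 71.9 CPM with IFNγ, 76.3, 86.3 and 81.3 CPM with IFNβ, and 57.2, 55.6 and 55.9 CPM with the STING agonist. The interferon libraries all lay above vehicle, with rises of 1.31-fold (log2 0.39, SE 0.0721, adjusted p = 6.4e-05) and 1.53-fold (log2 0.62, SE 0.0713, adjusted p = 4.3e-09). The STING agonist change was 0.05 (log2, SE 0.0718, adjusted p = 0.90).

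In B16F10 cells Cd276 was at 15.5, 15.6 and 15.3 CPM with vehicle, 16.9, 21.1 and 17.96 CPM with IFNγ and 18.003, 18.7 and 19.2 CPM with IFNβ. Neither interferon group overlapped vehicle, but the log2 changes of 0.27 (SE 0.0975, adjusted p = 0.031) and 0.28 (SE 0.0970, adjusted p = 0.022) were close to the threshold. The IFNγ call was lost without vehicle replicate 1 (0.076), 2 (0.063) or 3 (0.090) and without IFNγ replicate 2, where the log2 change was 0.17 (adjusted p = 0.33), and on total reads without TMM (0.063). The IFNβ call was lost without vehicle replicate 1 (0.058) or 3 (0.070) and without IFNβ replicate 2 (0.060) or 3 (0.051). Cd276 shares 416 exon bases with Gm10657 on the other strand, which had 131 reads in all.

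Cd80 and Cd86, the ligands of CD28 and CTLA-4 that professional antigen-presenting cells display, were at or near the detection limit in both lines. Cd80 gave 51 reads over 24 libraries, of which 48 were in B16F10 and 3 in 6694c2, and 17 of the 48 fell in replicate 2 of the IFNβ group. Cd86 gave 72 reads, with at most 7 in a library, in vehicle replicate 3 of B16F10. Group means were 0.0635 to 0.298 CPM for Cd80 in B16F10 and 0.0796 to 0.167 CPM for Cd86 over all 8 groups, which lie around the limit that a count of 0 allows. No change with a treatment was called for either gene, and changes at these levels were not detectable at this depth.

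**Figure D3:**
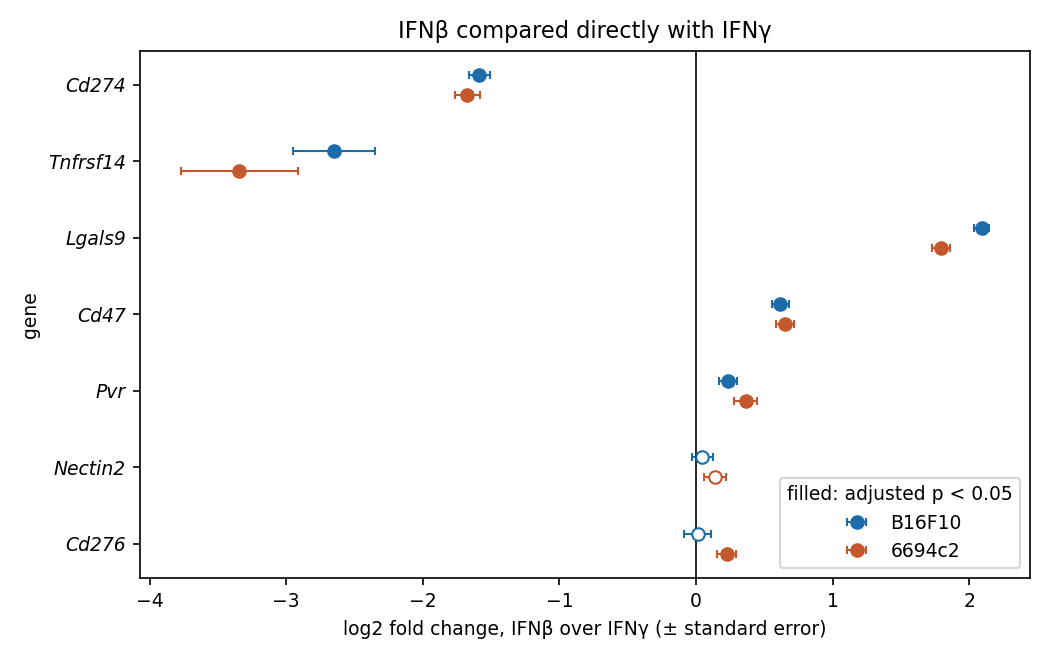
The log2 fold change of IFNβ over IFNγ is plotted for 7 ligand genes, with bars for the standard error of the fit (blue, B16F10; orange, 6694c2) and filled symbols for an adjusted p below 0.05. Cd274 and Tnfrsf14 lie left of 0 and Lgals9, Cd47 and Pvr right of 0 in both lines.

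In the direct comparison of IFNβ with IFNγ, some ligands were higher with one interferon and some with the other. The difference does not involve the vehicle means, although the vehicle libraries enter the estimate of the spread. In B16F10, 3 were higher with IFNβ (6.65% of all genes were), 2 were lower (7.85%) and 5 were not called. The corresponding counts in 6694c2 were 4 (7.3%), 2 (6.57%) and 4. Cd274 was lower with IFNβ than with IFNγ in B16F10 (log2 -1.59, SE 0.0751, adjusted p = 4.4e-65) and 3.19-fold lower in 6694c2 (log2 -1.67, SE 0.0929, adjusted p = 1.0e-18). Tnfrsf14 was 6.28-fold lower (log2 -2.65, SE 0.301, adjusted p = 2.3e-15) and 10.1-fold lower (log2 -3.34, SE 0.428, adjusted p = 5.8e-08).

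Lgals9 went the other way, 4.26-fold higher with IFNβ in B16F10 (log2 2.09, SE 0.0554, adjusted p = 3.0e-132) and 3.47-fold higher in 6694c2 (log2 1.79, SE 0.0687, adjusted p = 2.0e-24). For Cd47 the excess with IFNβ was 1.53-fold (log2 0.62, SE 0.0613, adjusted p = 1.7e-19) and 1.57-fold (log2 0.65, SE 0.0648, adjusted p = 9.8e-11), although the lines differed in how far Cd47 rose over vehicle. Pvr was also higher with IFNβ, by 0.23 (SE 0.0671, adjusted p = 0.0056) and 0.36 (SE 0.0817, adjusted p = 0.0011) on the log2 scale, and the B16F10 call was lost without IFNβ replicate 2 (log2 0.18, adjusted p = 0.11).

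Cd276 was higher with IFNβ in 6694c2 (log2 0.23, SE 0.0699, adjusted p = 0.022), a call lost without IFNγ replicate 1 (0.092), IFNγ replicate 2 (0.097), IFNβ replicate 2 (log2 0.17, adjusted p = 0.14) or IFNβ replicate 3 (0.054) and on total reads without TMM (0.050), and gave 0.01 (SE 0.0954) in B16F10. Nectin2 was not called in either line (log2 0.04, SE 0.0778, and 0.14, SE 0.0789).

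Whether the 2 lines responded by different amounts was tested as the difference of their log2 fold changes, 6694c2 minus B16F10. For IFNγ, 3 ligands had a larger change in 6694c2 (4.52% of all genes) and 1 a smaller one (4.95%, and 9.47% in either direction). For IFNβ the counts were 3 (6.16%) and 1 (5.9%), and for the STING agonist 1 (0.568%) and 2 (1.56%, and 2.12% in either direction). Cd47 responded less in 6694c2 to IFNγ (difference -1.45, SE 0.0855, adjusted p = 2.1e-16) and to IFNβ (difference -1.43, SE 0.0848, adjusted p = 1.5e-16). Nectin2 responded more in 6694c2 to IFNγ (difference 0.78, SE 0.121, adjusted p = 8.8e-06) and to IFNβ (difference 0.87, SE 0.120, adjusted p = 1.3e-06).

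Cd274 also gained more in 6694c2, by 1.01 (SE 0.238, adjusted p = 0.0033) with IFNγ and 0.91 (SE 0.242, adjusted p = 0.0080) with IFNβ on the log2 scale. The latter call was lost without 6694c2 vehicle replicate 2 (0.77, adjusted p = 0.058) or 3 (0.73, adjusted p = 0.066). Its level with IFNγ was lower in 6694c2, at 65.4 ± 2.01 CPM (SD, n = 3), than in B16F10, at 98.9 ± 7.79 CPM, without overlap. Lgals9 differed with IFNγ by 0.30 (SE 0.0875, adjusted p = 0.019), a call lost without 6694c2 IFNγ replicate 1 (0.28, adjusted p = 0.052) or 3 (0.28, adjusted p = 0.059). Its difference with IFNβ was -0.00 (SE 0.0860, adjusted p = 1.0).

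For the STING agonist, Nectin2 differed between the lines by 0.56 (SE 0.123, adjusted p = 0.0049), Lgals9 by -0.36 (SE 0.0875, adjusted p = 0.014) and Cd47 by -0.36 (SE 0.0884, adjusted p = 0.018). The Lgals9 call was lost without B16F10 vehicle replicate 1 (adjusted p = 0.068) or 2 (0.055) or STING agonist replicate 1 (0.073) or 2 (0.050). The Cd47 call was lost without B16F10 vehicle replicate 2 (0.059) or 3 (0.071), B16F10 STING agonist replicate 1 (0.087) or 3 (0.093), 6694c2 vehicle replicate 3 (0.068) or 6694c2 STING agonist replicate 1 (0.055). Tnfrsf14 and Pvr were not called for any treatment in this test. Cd276 differed with IFNβ alone (0.31, SE 0.105, adjusted p = 0.045), a call lost without 6694c2 vehicle replicate 2 (0.054) or 3 (0.11) or 6694c2 IFNβ replicate 2 (0.11) or 3 (0.068), on total reads without TMM (0.14), with no filter on low counts (0.093) and with only the groups compared (0.096).

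The rise of Lgals9 and Cd47 with the STING agonist in B16F10 came in the same libraries in which the ductal markers rose from 0.133% to 0.827% of their 6694c2 level. Both genes are higher in 6694c2. The gain of 0.694 percentage points was multiplied by the highest group mean of the gene in 6694c2. That was the IFNβ group, at 983 CPM for Lgals9 and 379 CPM for Cd47, against 207 and 174 CPM with the STING agonist. The product came to 6.83 CPM for Lgals9 and 2.63 CPM for Cd47, and the measured rises were 46.3 and 5.55 CPM. Nectin2, which fell, came to 0.396 CPM by the same product. Whether the marker share measures material of the other line, and its part in these changes, was not tested.

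Between the untreated lines, 3 ligands were higher in 6694c2 (28.7% of all genes were) and 4 were lower (29.3%, and 58% in either direction). Cd47 was 6.95-fold higher in 6694c2 (log2 2.80, SE 0.0645, adjusted p = 1.3e-32), Cd276 3.51-fold higher (log2 1.81, SE 0.0766, adjusted p = 1.9e-23) and Lgals9 1.60-fold higher (log2 0.68, SE 0.0624, adjusted p = 1.2e-12). Cd274 was 3.04-fold lower (log2 -1.60, SE 0.216, adjusted p = 2.0e-08) and Pvr 1.62-fold lower (log2 -0.69, SE 0.0792, adjusted p = 3.9e-10). Without TMM every 6694c2 value in this comparison shifts by -0.18 on the log2 scale, and none of these 5 directions changed.

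Nectin2 was not called between the untreated lines (log2 -0.17, SE 0.0874, adjusted p = 0.089) except on total reads without TMM (log2 -0.35, adjusted p = 0.00042) and without B16F10 vehicle replicate 3 (log2 -0.26, adjusted p = 0.025). Tnfrsf14, with 18 against 3 reads, and Cd80, with 10 against 0, were also called lower in 6694c2, at adjusted p = 0.041 and 0.035. The Tnfrsf14 call was lost without B16F10 vehicle replicate 2 (0.26) or without 6694c2 vehicle replicate 1 (0.084), 2 (0.092) or 3 (0.081), and with only the groups compared (0.094). The Cd80 call was lost without B16F10 vehicle replicate 1 (0.12) or 6694c2 vehicle replicate 1 (0.076), 2 (0.082) or 3 (0.077), and by DESeq2 (0.063).

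To order the ligands against each other, CPM were divided by the exon length of each gene in kilobases. Lgals9 was at rank 1 in all 8 groups, and its libraries did not overlap those of the next gene in any. In untreated B16F10 cells it was followed by Nectin2 (10.4 ± 0.562 CPM per kb, SD, n = 3), Pvr (8.43 ± 0.432), Cd47 (5.02 ± 0.155), Cd276 (4.22 ± 0.0446), Cd274 (0.924 ± 0.208) and Tnfrsf14 (0.216 ± 0.147). In untreated 6694c2 cells the order was Lgals9 (89.6 ± 2.63), Cd47 (34.9 ± 1.86), Cd276 (14.8 ± 0.636), Nectin2 (9.21 ± 0.291), Pvr (5.20 ± 0.412) and Cd274 (0.305 ± 0.127). None of the neighbors from Lgals9 to Cd274 overlapped in range in either untreated line. Cd80, Cd86 and Pdcd1lg2 lay at or near the detection limit and were not ordered, nor was Tnfrsf14 in untreated 6694c2 cells, with 1 read in each library.

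IFNγ moved Cd274 from rank 6 to rank 2 in B16F10, at 27.3 ± 2.15 CPM per kb, behind Lgals9 at 68.0 ± 2.32, and from rank 6 to rank 4 in 6694c2, at 18.1 ± 0.555. With IFNβ it was at rank 5 in B16F10, at 9.01 ± 0.876, and its range overlapped that of Nectin2 at 10.1 ± 0.440. In 6694c2 it was at rank 6 with IFNβ, at 5.57 ± 0.315 CPM per kb, below Pvr at 7.12 ± 0.566.

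**Figure D4:**
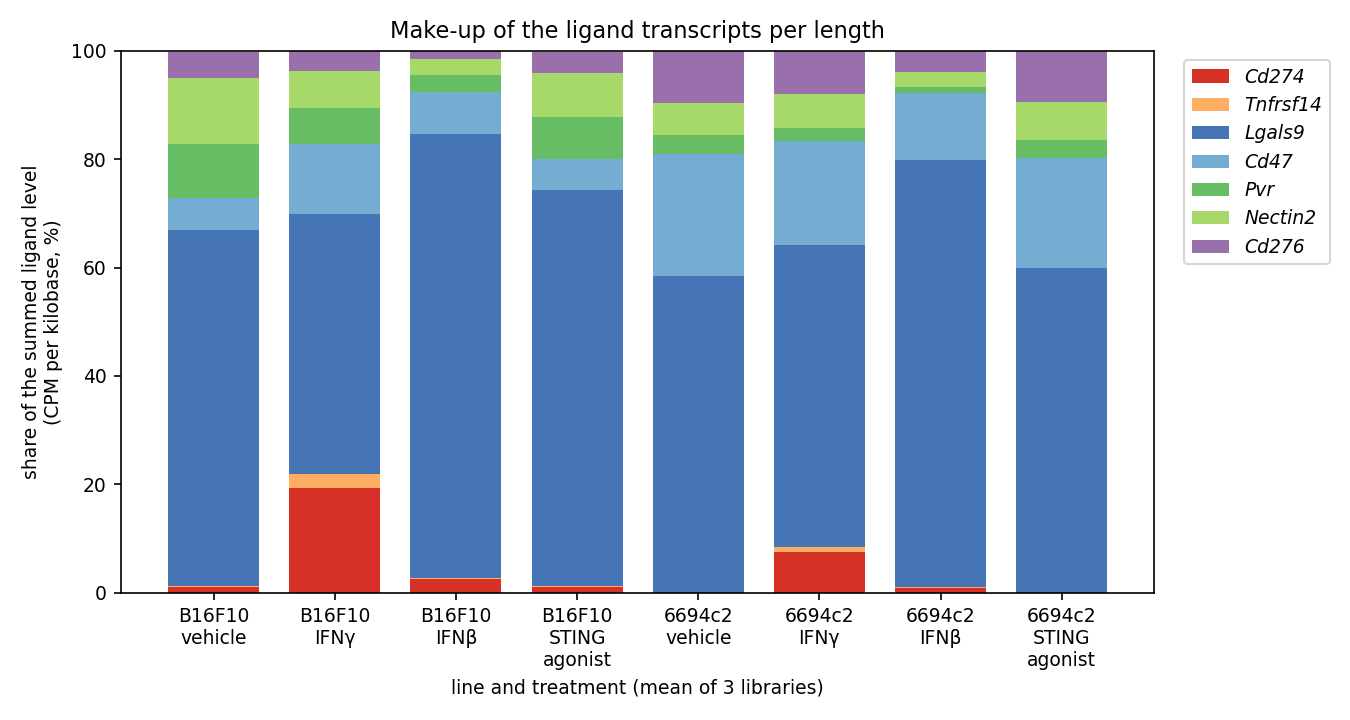
Stacked bars show the share of each ligand gene in the summed ligand level (CPM per kilobase, percent, mean of 3 libraries) for each line and treatment. Lgals9 takes the largest share in every group, and Cd274 becomes visible with IFNγ, at 19.3% in B16F10 and 7.51% in 6694c2.

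The summed level of the 10 ligands was 85.2 ± 0.517 CPM per kb in untreated B16F10 cells, 141.7 ± 4.41 with IFNγ, 351 ± 20.6 with IFNβ and 106 ± 2.28 with the STING agonist. In 6694c2 cells it was 154 ± 3.69, 241 ± 8.06, 583 ± 44.6 and 162 ± 1.03. Lgals9 held the largest share of the sum, at 65.6% of it in untreated B16F10 cells, 48.0% with IFNγ and 81.8% with IFNβ, and at 58.1%, 55.8% and 78.8% in 6694c2. The share of Cd274 went from 1.08% to 19.3% with IFNγ and 2.56% with IFNβ in B16F10, and from 0.199% to 7.51% and 0.959% in 6694c2. The share of Cd47 in untreated cells was 5.90% in B16F10 and 22.6% in 6694c2.

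RefSeq promoter windows, 250 bases before to 50 after the start, were found for 8 of the 10 genes, and none for Pvr and Cd86. Each was searched on both strands for the IRF pair, for the GAS element of interferon-gamma targets (TTC and GAA with any 3 bases between) and for an NF-kB site (GGGA and TTCC with any 2 bases between). The motifs can overlap each other. Only Lgals9 and Tnfrsf14 held a match, each to the IRF pair, which 3.44% of the 32851 windows of the table hold. GAS is in 8.30% of all windows and the NF-kB letters in 1.47%, and neither is in a window of these 8 genes. The RefSeq start lies 910 bases inside the gene as counted here for Nectin2, 404 for Cd276 and 486 for Tnfrsf14. Bases before the counted start of these genes were therefore not searched. Matches are descriptions of letters and not of bound sites. Of Cd274 and Tnfrsf14, both highest with IFNγ, only Tnfrsf14 held one, and of Lgals9 and Cd47, both highest with IFNβ, only Lgals9 did.

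The genes that carry the interferon signal to these ligands were followed as a list of 19 receptors, kinases, transcription factors and brakes. In B16F10 cells 13 rose and 2 fell with IFNγ (12% and 10.8% of all genes did), and 13 rose and 1 fell with IFNβ (12.7% and 11.2%). In 6694c2 cells 12 rose and 1 fell with IFNγ (7.89% and 5.66%), and 13 rose and 0 fell with IFNβ (10.4% and 7.86%). Irf1, the transcription factor through which IFNγ acts on many of its targets, rose by 5.69 (SE 0.0727) with IFNγ and by 1.68 (SE 0.0734) with IFNβ in B16F10 on the log2 scale. Usp18, a brake on the type I receptor, rose with IFNβ by 4.12 (SE 0.0611) in B16F10 and 8.32 (SE 0.128) in 6694c2. The STING agonist raised 5 of the 19 in B16F10 (1.93% of all genes rose), among them Usp18 (log2 1.15, SE 0.0583) and Stat2 (log2 1.04, SE 0.0921). In 6694c2 it raised 1 (0.203%), Irf7 (log2 1.62, SE 0.206).

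Another list held 35 other ligands of lymphocyte or myeloid receptors, of which 30 were expressed enough to be tested. In B16F10 cells 7 rose and 5 fell with IFNγ (12% and 10.8% of all genes did) and 6 rose and 4 fell with IFNβ (12.7% and 11.2%). In 6694c2 cells 4 rose and 3 fell with IFNγ (7.89% and 5.66%) and 5 rose and 6 fell with IFNβ (10.4% and 7.86%). The median log2 change of the list was 0.28, 0.44, 0.09 and -0.03 in these 4 comparisons, beside medians over all genes of 0 to 0.02. H2-T23, which encodes the Qa-1 ligand of NKG2A, rose with IFNγ by 5.30 (SE 0.0926) in B16F10 and 4.12 (SE 0.0840) in 6694c2 on the log2 scale, and with IFNβ by 2.38 (SE 0.101) and 3.82 (SE 0.0832). Clec2d, a ligand of inhibitory NKR-P1 receptors, and Tnfsf10, which encodes the death ligand TRAIL, also rose with both interferons in both lines. In B16F10, 2 rose with the STING agonist (1.93% of all genes did), H2-T23 (log2 0.80, SE 0.122) and Cd24a (log2 2.36, SE 0.263). In 6694c2, 1 rose with it (0.203%), Lgals3 (log2 0.32, SE 0.0696). Cd24a encodes a surface protein that binds Siglec-G, and its rise came with that of the ductal markers in the same libraries, whose part in it was not tested.

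A list of 19 genes is known to bear on PD-L1 protein stability, surface level or transcription. Of these, 3 rose and 3 fell with IFNγ in B16F10 (12% and 10.8% of all genes did) and 5 rose and 1 fell in 6694c2 (7.89% and 5.66%). With IFNβ 4 rose and 8 fell in B16F10 (12.7% and 11.2%) and 5 rose and 1 fell in 6694c2 (10.4% and 7.86%). The median log2 change of the list was between -0.03 and 0.09 in these 4 comparisons. B3gnt3, a glycosyltransferase that acts on PD-L1, rose with IFNγ by 1.40 (SE 0.0956) in B16F10 and 0.61 (SE 0.0653) in 6694c2 on the log2 scale. Myc fell with IFNβ in B16F10 (log2 -0.77, SE 0.0882) and rose with it in 6694c2 (log2 0.87, SE 0.0677). Cmtm6, which keeps PD-L1 at the cell surface, rose with IFNγ in B16F10 (log2 0.43, SE 0.0762). In B16F10, 0 rose and 2 fell with the STING agonist (1.93% and 1.53% of all genes did), and 0 of 19 were called in 6694c2 (0.36% in either direction).

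Of 14 receptors and partners of the ligands, 10 were tested, and most belong to lymphocytes. In B16F10 1 rose and 2 fell with IFNγ (12% and 10.8% of all genes did) and 1 rose and 1 fell with IFNβ (12.7% and 11.2%). In 6694c2 the counts were 2 and 0 with IFNγ (7.89% and 5.66%) and 1 and 1 with IFNβ (10.4% and 7.86%). Thbs1, which encodes thrombospondin-1, a soluble ligand of CD47, rose with IFNγ by 4.63 (SE 0.0808) in B16F10 and 0.76 (SE 0.156) in 6694c2, and with IFNβ by 1.97 (SE 0.0833) and 1.06 (SE 0.150) on the log2 scale. Sirpa, at 184 CPM with vehicle in B16F10, fell there with IFNγ (log2 -0.57, SE 0.0566) and IFNβ (log2 -0.31, SE 0.0561). In 6694c2, at 0.978 CPM with vehicle, Sirpa fell with IFNβ (log2 -1.37, SE 0.467), as the melanocyte markers did. Havcr2 fell with IFNγ in B16F10 (log2 -0.60, SE 0.186). Tigit, at 12.7 CPM with vehicle in 6694c2, rose there with IFNγ (log2 0.65, SE 0.110). With the STING agonist 1 fell in each line (1.53% of all genes fell in B16F10 and 0.156% in 6694c2). These were Cd44 in B16F10 (log2 -0.18, SE 0.0535) and Sirpa in 6694c2 (log2 -2.93, SE 0.546). The latter fell beside the melanocyte markers in 6694c2, which went from 0.470% to 0.114% of their B16F10 level.

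The candidates for likeness to a ligand were the 13352 genes with at least 1 CPM in at least 1 group mean. Among them, the genes with the most similar pattern over the 8 group means were found. The measure was the root-mean-square difference of log2 CPM after removing each line's mean. For Cd274 the nearest genes were Il18bp (0.23), which encodes a decoy of interleukin-18, Irgm1 (0.35), an interferon-inducible GTPase, and Gm5970 (0.48). Tnfrsf14 was nearest to Gm12216 (0.37), Casp12 (0.40) and Socs1 (0.43), and Cd47 to Mill2 (0.14), ENSMUSG00000108658 (0.16) and C2 (0.25). Lgals9 was nearest to Sult6b1 (0.33), Tdrd7 (0.35) and Nlgn2 (0.38). These distances rest on 8 points that share libraries and are descriptions. Some of the genes had low levels, so that few reads set their pattern. Group means ran from 0.139 to 1.32 CPM for Sult6b1, from 0.0130 to 5.96 CPM for Gm5970 and from 0.395 to 3.51 CPM for ENSMUSG00000108658. Sult6b1 reached the minimum of 1 CPM only with IFNβ, and Gm5970 only with IFNγ. In those groups the matched ligand was highest too, so the minimum itself favored their likeness.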

How the data were processed

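Polyadenylated RNA was sequenced paired-end in 24 libraries. Per the labels and the study's methods, the authors trimmed reads with cutadapt 1.14, aligned them to mm10 with STAR 2.7.9a and counted reads per gene with Rsubread, whose version and strand setting are not given in the sources used here. The deposited values are raw counts, not normalized. Genes with at least 10 reads over the 24 libraries were kept (21138 of 49315). Counts were tested with edgeR 4.0.16 (R 4.3.3, limma 3.58.1): TMM, quasi-likelihood F-test, Benjamini-Hochberg adjustment over all genes tested, called below 0.05. Treatments were compared in 1 fit per line (12 libraries), and lines in 1 fit of 24. The procedure was tested on simulated data with large changes in well-counted genes. That test does not cover genes near the detection limit or small changes.

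CPM used TMM effective library sizes, and levels between genes were divided by merged exon length. Alternatives were DESeq2 1.42.0, other size factors, total reads, other filters, a replicate block, other sample sets, and leaving out each library. The ligands and all lists were chosen with earlier results of these data known. From other lists, at most 4 called genes per list and comparison were named, by smallest p. For each ligand over 2-fold, the 3 genes most like it were given. Sequences are from RefSeq. Single-cell samples of the series are not analysed here.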

Additional observations from a re-analysis of the deposited data

Results flagged for a closer look

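The lines differed in their response (6694c2 minus B16F10, log2) in 11 results for the ligands, each by the test of the difference itself in edgeR. With IFNγ the difference was 1.01 for Cd274, 0.30 for Lgals9, 0.78 for Nectin2 and -1.45 for Cd47. With IFNβ it was 0.91 for Cd274, 0.87 for Nectin2, -1.43 for Cd47 and 0.31 for Cd276. With the STING agonist it was 0.56 for Nectin2, -0.36 for Lgals9 and -0.36 for Cd47. Groups of 3 libraries are too small to test for a single outlying library.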

How the results depend on the processing

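Of 85 results for the ligands, 55 were called, and 41 of these were called under every alternative tried (13 to 20 each) while 14 were lost under at least 1. None of the 55 changed direction. Of the 30 not called, 9 changed direction and 2 became called under at least 1 alternative. Causes were not tested.

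The log2 change of Cd276 with the STING agonist in B16F10 was 0.0034 by DESeq2, 0.0034 with RLE size factors, 0.020 on total reads, 0.0035 with the filterByExpr minimum, 0.0018 in the fit of 24 libraries and 0.0037 with only the groups compared, and its IFNβ against IFNγ change there was -0.0043 by DESeq2 and -0.0037 with RLE. The difference between lines was 0.00018 for Lgals9 with IFNβ under filterByExpr, and 0.018 for Pvr with IFNγ with only the groups compared.

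Ligands called lower with the STING agonist in B16F10 went from 1 to 0 by DESeq2, under filterByExpr and in the fit of 24 libraries. All genes called there went from 732 to 459 in the fit of 24 libraries and 1271 with only the groups compared. In 6694c2 they went from 76 to 44 under filterByExpr, 155 with no filter and 132 with only the groups compared, and for the STING difference between lines from 449 to 743 by DESeq2 and 793 with only the groups compared. Without division by length, 2 ligands, Nectin2 and Pvr, changed places in untreated B16F10 cells.

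No pairing of libraries by replicate number was seen, but 3 libraries per group cannot exclude it. No pair of groups had every correlation of same-numbered deviations over 0.1, and in 0 of 12 group pairs did every library correlate best with its own number. With the replicate block, genes called with the STING agonist in 6694c2 went from 76 to 126, and ligands called lower in untreated 6694c2 from 4 to 2.

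Leaving out 1 library at a time gave these ranges. In B16F10 with the STING agonist, 1 to 2 ligands were called higher and 0 to 1 lower, and 415 to 568 genes were called in all. The log2 changes there ran from -0.99 to 0.41 for Tnfrsf14 and from -0.024 to 0.0073 for Cd276. Nectin2 ran from -0.14 to 0.024 with IFNγ and from -0.059 to 0.11 for IFNβ against IFNγ in B16F10, and Cd276 from -0.065 to 0.11 for the latter. Cd274 ran from -0.31 to 0.25 with the STING agonist in 6694c2, where 42 to 105 genes were called in all. Differences between lines ran from -0.092 to 0.021 for Pvr with IFNγ, from -0.073 to 0.088 for Lgals9 with IFNβ and from -0.20 to 0.88 for Tnfrsf14 with IFNβ. Ligands called were 1 to 3 higher for the IFNβ difference, 0 to 2 lower for the STING difference (321 to 455 genes in all), and 2 to 5 lower in untreated 6694c2.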
